A study of Mus musculus with 8 samples.

Results

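The 10 genes described here are Aif1, Fcgr3, Csf1r, Cd68, Adgre1, C1qa, C1qb, C1qc, Lyz2 and Mrc1, all of which are used as macrophage genes, and they are 10 of the 13795 genes tested in whole mouse testis. Every probe set annotated with 1 of these symbols was taken, which gave 14 probe sets, and all 14 passed the filter on dim probe sets. Aif1 and Fcgr3 were chosen by their measured differences between mutants and wild types on these arrays, Aif1 as lower and Fcgr3 as higher, and the other 8 were added with those results known, so the genotype differences of these genes are given as descriptions without a test. Their differences between replicates of 1 genotype played no part in that choice.

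The study compared the testes of Brwd1-/- mice, called mutants below, with those of wild-type mice, to look for expression changes in spermatids, the germ cells that follow meiosis. There were 4 mutant and 4 wild-type mice, all 27 days old and untreated, with 1 array per mouse and RNA from whole testes. The titles call the controls wild type, but their genotype entry reads Brwd1+/-, so the controls may carry 1 mutant copy, and the kind of mutation is not given in the sources used here. Values are microarray intensities, which the authors scaled so that the trimmed mean of each array was 500. The number of arrays limits the precision.

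Brwd1 was represented by 5 probe sets, of which 4 passed the filter, and the genotypes overlapped on each. The probe set with the highest mean in mutants read 413, 436, 324 and 287 in mutants 1 to 4, against 304, 222, 306 and 329 in wild types 1 to 4. Which exons the mutation touches is not given in the sources used here, so these probe sets do not check the genotype labels. In each genotype replicates 3 and 4 stood apart from replicates 1 and 2. The summed intensity of 11 epididymis genes was 62440 to 74626 in replicates 3 and 4, against 354 to 766 in replicates 1 and 2. The labels name no batch or dissection difference, and this is called the split of replicates below. Genes of Sertoli cells, the somatic cells of the tubules, were measured on every array, with a summed intensity over 11 genes of 52112 to 77297 in mutants and 48254 to 64177 in wild types. The epididymis genes of replicates 3 and 4 nevertheless go against a label of testis alone.

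Testicular macrophages lie between the seminiferous tubules and on their walls, beside the Leydig cells. They depend on signalling through the receptor encoded by Csf1r, display the surface protein F4/80 encoded by Adgre1, and secrete C1q, the recognition molecule that opens the classical complement pathway and is built from the chains encoded by C1qa, C1qb and C1qc. Aif1 encodes the calcium-binding, actin-bundling protein IBA1, whose antibody is a common stain for macrophages and microglia.

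The transcription factor PU.1 drives many macrophage genes through purine-rich sites with a GGAA core. The sequence around each start was therefore searched for GAGGAA, on either strand (TTCCTC on the other). RefSeq windows on GRCm38.p6, from 250 bases before to 50 after the start, were at hand for 7 of the 10 genes; Csf1r, Adgre1 and C1qa had none and are only named. The windows of Aif1, Fcgr3, C1qb, C1qc and Mrc1 are shown because the values below turn on these genes, in the direction of transcription with each match in capitals.
Aif1, chr17:35176003-35176302, minus strand: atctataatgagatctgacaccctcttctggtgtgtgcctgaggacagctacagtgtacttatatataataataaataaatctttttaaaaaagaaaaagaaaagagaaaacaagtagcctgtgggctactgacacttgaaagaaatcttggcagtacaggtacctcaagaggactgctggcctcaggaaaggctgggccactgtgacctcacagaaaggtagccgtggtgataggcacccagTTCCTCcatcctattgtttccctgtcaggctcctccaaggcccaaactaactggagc
Fcgr3, chr1:171059354-171059653, minus strand: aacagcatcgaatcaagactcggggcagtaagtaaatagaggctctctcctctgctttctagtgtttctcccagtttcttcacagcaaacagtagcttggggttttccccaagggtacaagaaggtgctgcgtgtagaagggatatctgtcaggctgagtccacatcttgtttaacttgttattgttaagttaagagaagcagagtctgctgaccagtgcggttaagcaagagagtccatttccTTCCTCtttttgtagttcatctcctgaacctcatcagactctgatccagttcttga
C1qb, chr4:136886151-136886450, minus strand: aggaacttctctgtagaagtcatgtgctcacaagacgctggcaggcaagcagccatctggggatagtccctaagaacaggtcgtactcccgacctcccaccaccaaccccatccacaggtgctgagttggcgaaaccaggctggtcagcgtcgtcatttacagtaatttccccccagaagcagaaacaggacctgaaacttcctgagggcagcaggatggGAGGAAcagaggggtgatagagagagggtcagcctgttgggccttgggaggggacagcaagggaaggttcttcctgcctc
C1qc, chr4:136892865-136893164, minus strand: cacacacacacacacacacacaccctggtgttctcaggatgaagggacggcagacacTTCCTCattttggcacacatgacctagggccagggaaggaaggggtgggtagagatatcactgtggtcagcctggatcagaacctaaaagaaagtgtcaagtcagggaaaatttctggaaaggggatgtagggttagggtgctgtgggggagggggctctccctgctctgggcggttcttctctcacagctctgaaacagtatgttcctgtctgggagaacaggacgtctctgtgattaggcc
Mrc1, chr2:14229164-14229463, plus strand: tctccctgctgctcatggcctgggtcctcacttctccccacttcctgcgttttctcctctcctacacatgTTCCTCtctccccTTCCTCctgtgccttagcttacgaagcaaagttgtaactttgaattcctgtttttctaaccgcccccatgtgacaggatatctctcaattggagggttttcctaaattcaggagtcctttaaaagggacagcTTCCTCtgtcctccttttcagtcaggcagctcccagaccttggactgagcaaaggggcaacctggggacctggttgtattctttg

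GAGGAA or its reverse complement was in 6 of the 7 windows, those of Aif1, Fcgr3, Cd68, C1qb, C1qc and Mrc1, and not in that of Lyz2. It was in 28.3% of the first windows of all 27025 genes with one, and in 5 of 16 windows of late spermatid genes. The match in Aif1 began 7 bases before the start and that in Fcgr3 began 6 bases before it. TGACGTCA, the cAMP response element that the germ-cell activator CREM binds, was in 0 of the 7 windows and 0 of the 16 late spermatid windows, against 1.88% of all first windows. Its part TGACG, searched on both strands, was in the windows of Cd68 and C1qb and in 5 of the 16 late spermatid windows, against 21.0% of all first windows. These matches describe the letters of the windows and say nothing of binding.

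Aif1 went against the other 9 genes between genotypes. Its probe set, whose _s_at name marks probes that may be shared between transcripts, read 218, 1253, 905 and 1166 in mutants 1 to 4, against 2985, 4051, 2835 and 1918 in wild types 1 to 4. All mutants lay below all wild types, and mutant 1 was far below the other mutants. The means were 885 ± 469 in mutants and 2947 ± 874 in wild types (SD, n = 4 each). On the log2(intensity + 16) scale, used for all differences here, Aif1 differed by -1.93 (SE 0.51), which is 3.80-fold lower in mutants. In replicates 3 and 4 alone the difference was -1.17, and in replicates 1 and 2 alone it was -2.68. Leaving out mutant 1 gave -1.36.

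Fcgr3, which encodes a low-affinity receptor for immunoglobulin G, was the other gene whose genotypes did not overlap. It read 4689, 5052, 3458 and 3496 in mutants 1 to 4, against 3084, 2616, 2738 and 2255 in wild types 1 to 4. Every mutant was above every wild type, and the mutants of replicates 1 and 2 were the highest. The means were 4174 ± 818 in mutants and 2673 ± 342 in wild types (SD, n = 4 each), a difference of 0.63 (SE 0.17) or 1.55-fold. In replicates 3 and 4 alone it was 0.48, and in replicates 1 and 2 alone it was 0.77. Of all genes 5.34% lay lower and 2.53% higher in mutants without overlap, which is given as background only, since Aif1 and Fcgr3 were chosen on this contrast.

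For the other 8 genes the genotypes overlapped, with differences between 0.09 for Adgre1 and 0.31 for Csf1r. With Fcgr3, 9 of the 10 genes had positive differences and the median of the 10 was 0.19, beside a median of 0.07 and 62.7% positive over all genes tested. Some of these differences were near 0 and turned sign: C1qc was -0.03 without mutant 1 and -0.01 without wild type 3, and Mrc1 was -0.03 without mutant 3 or without wild type 1. In replicates 3 and 4 alone C1qb was -0.02, and in replicates 1 and 2 alone Mrc1 was -0.01 and Adgre1 was -0.0048. On leaving out 1 mouse the difference of Csf1r ran between 0.19 and 0.44, of Cd68 between 0.10 and 0.36, of C1qa between 0.05 and 0.39 and of Lyz2 between 0.10 and 0.28. Without a block, 0 of the 10 were called at an adjusted p under 0.05 (limma). Of all genes 0.333% were called, 0.319% lower and 0.0145% higher in mutants. With the replicate number as a block Fcgr3 was called higher and Aif1 lower, where 3.5% of all genes were called, 3.19% lower and 0.312% higher. With the split of replicates as a block Fcgr3 was called higher, where 2.69% of all genes were, 2.22% lower and 0.471% higher. With the replicate block the call of Aif1 was lost without a filter, without an intensity trend, with the mean of probe sets, with a pseudocount of 1 and with robust eBayes, and that of Fcgr3 was lost without a trend. With the split as a block the call of Fcgr3 was lost without a trend and on leaving out any 1 of 4 mice (mutants 3 and 4 and wild types 1 and 2), and without mutant 1 Aif1 was called too. These calls come from the contrast that chose the genes, so nothing is read from them.

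**Figure D1:**
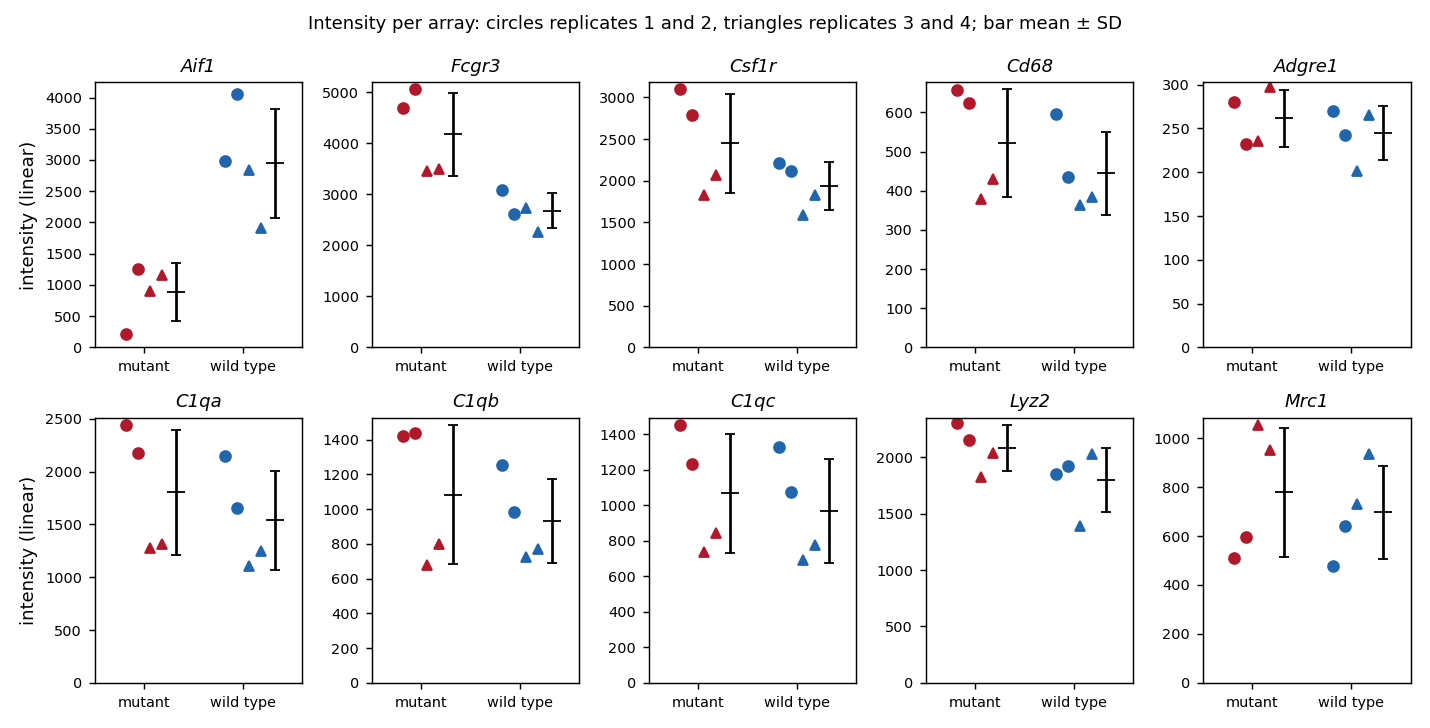
Intensity (linear) of the 10 genes on each of the 8 arrays, 1 panel per gene with its own scale, with mutants left of wild types; points are single mice and the black bars give mean ± SD. Aif1 shows mutants at 218 to 1253 below wild types at 1918 to 4051, Fcgr3 shows mutants at 3458 to 5052 above wild types at 2255 to 3084, and the genotypes overlap in the other 8 panels.

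Whether Aif1 moved with macrophage genes or with spermatid genes was read from its correlation over the 8 arrays with the mean standardised level of each list. The arrays are shared by all genes, and late spermatid genes were lower in mutants as Aif1 was, so the correlations were also taken after removing each genotype's mean, and after removing the split of replicates as well. These are descriptions of 8 arrays, with no test. The late spermatid list was chosen with earlier results of these data known.

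Aif1 followed the 19 late spermatid genes measured here, which include the protamines and transition proteins that package sperm DNA and parts of the sperm tail. Pearson's r was 0.992 over the 8 arrays (Spearman's rho 0.976), 0.99 with genotype means removed (rho 0.929) and 0.991 with genotype and split means removed (rho 0.905). Each of the 19 genes had r above 0.8 with Aif1 at all 3 levels, while 7.34%, 6% and 9.14% of all genes did. Odf1, a protein of the outer dense fibres of the sperm tail, shows the likeness: it read 970, 5201, 3280 and 4506 in mutants 1 to 4, against 10564, 13339, 10496 and 7110 in wild types 1 to 4. As for Aif1, mutant 1 was the lowest mouse and wild type 2 the highest.

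Aif1 did not follow the other macrophage genes. Against the other 9 genes r was -0.599 (rho -0.286), -0.333 with genotype means removed (rho -0.190) and -0.532 with genotype and split means removed (rho -0.643). None of the 9 had r above 0.8, and only Mrc1 had r above 0 with genotype means removed. Of all genes 39.6% had r above 0 at that level and 6% had r above 0.8. The count of 0 of 9 above 0.8 was thus near the share over all genes. Against the mean of 31 further macrophage genes, those tested of 40 listed, r was -0.819, -0.632 and -0.514 at the 3 levels. Taken singly these genes were near all genes in their median r. It was -0.195, -0.0749 and -0.108, beside -0.164, -0.0947 and -0.211 over all genes. Of the 31 genes 6, 11 and 14 had r above 0, beside 35.7%, 39.6% and 38.4% of all genes. Against 20 genes of spermatocytes and early spermatids, such as the acrosomal protease gene Acr, r was 0.843, 0.840 and 0.857, but only 5, 4 and 7 of them had r above 0.8.

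Mutant 1 carries much of these values. Without it, on 7 arrays with genotype means removed, r with the late spermatid genes was 0.932, and 12 of the 19 had r above 0.8, beside 6.60% of all genes. Against the other 9 genes r without mutant 1 was -0.216 with no means removed, 0.416 with genotype means removed and -0.598 with genotype and split means removed. The sign thus turned at the middle level alone, and at that level it rests on mutant 1. Without mutant 1 and wild type 2, the 2 arrays farthest from the median of Aif1, r with the late spermatid genes was 0.989, 0.913 and 0.935 at the 3 levels on 6 arrays. With each array centred on its median, r with the other 9 genes was -0.269, -0.0193 and -0.246.

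**Figure D2:**
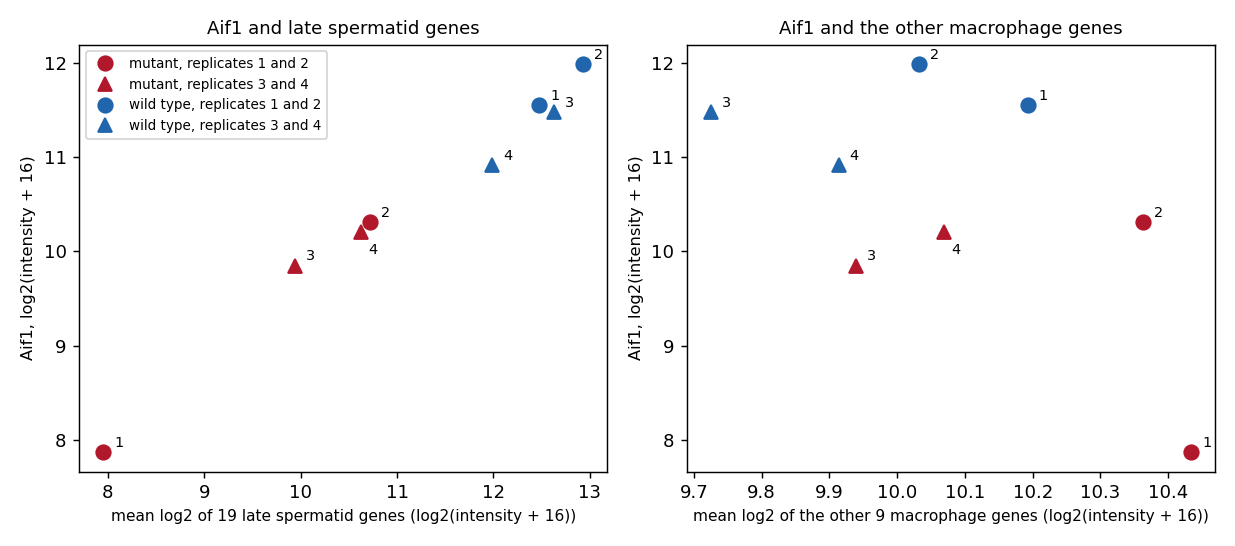
Level of Aif1, log2(intensity + 16), on each array against the mean log2 level of the 19 late spermatid genes (left panel) and of the other 9 macrophage genes (right panel), with mutants in red and wild types in blue, circles for replicates 1 and 2, triangles for replicates 3 and 4, and replicate numbers beside the points. The points rise along a line with the late spermatid genes and do not with the other macrophage genes, where mutant 1 lies far below the rest.

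The same was seen between mice of 1 genotype and 1 side of the split. For mutant 2 minus mutant 1 the difference in Aif1 was 2.44, the median of the 19 late spermatid genes was 2.50 with all 19 higher, and the median of the other 9 macrophage genes was -0.10. For mutant 4 minus mutant 3 these were 0.36, 0.56 with all 19 higher, and 0.18. For wild type 2 minus wild type 1 they were 0.44, 0.39 with all 19 higher, and -0.24. For wild type 4 minus wild type 3 they were -0.56, -0.63 with all 19 lower, and 0.18. Aif1 thus had the sign of the late spermatid genes in 4 of 4 pairs of mice, and that of the other macrophage genes in 1 of 4. Over all genes the medians of the 4 pairs, in the same order, were -0.07, 0.0048, -0.03 and 0.05. The shares of all genes that were higher were 42.3%, 51.0%, 46.5% and 56.9%. The other macrophage genes had the sign of the median over all genes in each pair, so the count of 1 of 4 is not particular to them.

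**Figure D3:**
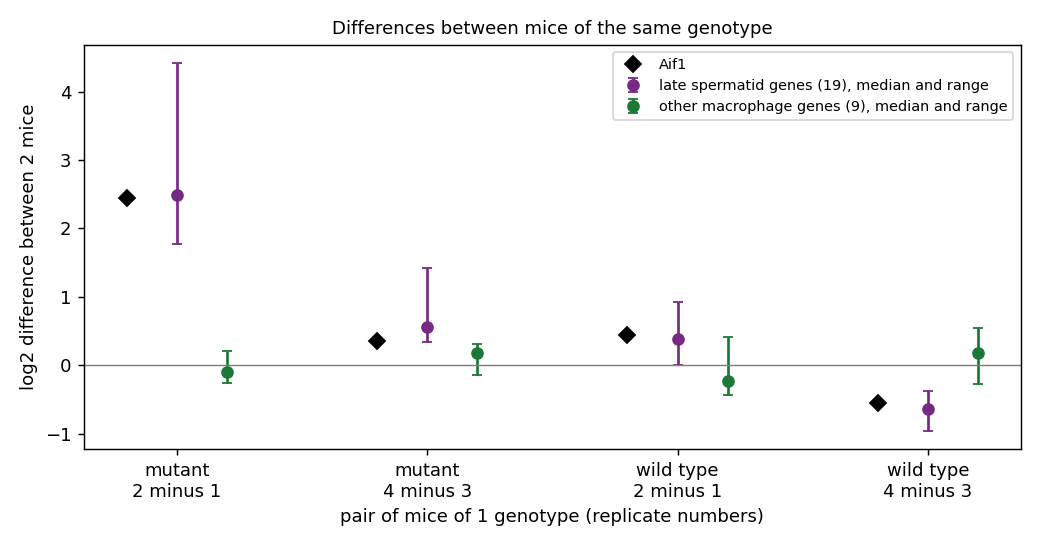
Log2 difference between the 2 mice of each pair for Aif1 (diamonds), the 19 late spermatid genes and the other 9 macrophage genes (circles at the median, bars over the range of genes). Aif1 lies within the range of the late spermatid genes in all 4 pairs, at 2.44, 0.36, 0.44 and -0.56.

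Between genotypes all 19 late spermatid genes had negative differences, with a median of -2.38 beside -1.93 for Aif1. Called lower in mutants were 17 of the 19 with replicate number as a block, 10 with the split as a block and 2 with neither. Of all genes 3.19%, 2.22% and 0.319% were called lower in these fits, and the list was chosen with such results known.

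The 10 genes most like Aif1 over the 8 arrays were Otub2, Ropn1, Odf1, AI507597, 1700016H13Rik, Cypt3, Izumo2, 1700001C19Rik, Pkib and Hils1, with r between 0.997 and 0.999. Ropn1 encodes a protein of the sperm tail's fibrous sheath and Hils1 a linker histone of spermatids. With genotype and split means removed they were Rnf133, Tex43, Iqcf1, 1700016H13Rik, Nt5c1b, Efcab9, Spz1, Vwa3a, 1700019D03Rik and 1700013D24Rik. No macrophage gene of the lists was in either set. Each set held only 10 of the 13795 genes tested, so nothing is read from this absence. In all 14 lists were set against Aif1, and r below 0 was not particular to macrophage genes. At the 3 levels it was -0.553, -0.470 and -0.826 for 11 Sertoli cell genes, and -0.520, -0.152 and -0.381 for 10 endothelial genes. For 6 genes listed with the classical complement pathway it was -0.962, -0.917 and -0.942. For 7 Leydig cell genes it was -0.133, 0.292 and 0.477, and for 2 lymphocyte genes 0.813, 0.526 and 0.525. Aif1l, the paralogue of Aif1, at 96.4 to 163 in mutants and 110 to 227 in wild types, had r of 0.430, 0.0718 and 0.405 with Aif1.

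Of the 5 nearest annotated genes on each side of Aif1 on chromosome 17, only Bag6 and Prrc2a were tested. Bag6, a chaperone gene needed in male germ cells, had means of 3472 ± 686 in mutants and 3809 ± 352 in wild types (SD, n = 4 each; limma, adjusted p = 0.942). Prrc2a had 2870 ± 336 in mutants and 2970 ± 513 in wild types (limma, adjusted p = 0.997). Their r with Aif1 was 0.197 for Bag6 and -0.224 for Prrc2a. The cytokine genes Tnf and Ltb, Lst1, expressed in leukocytes, and Apom were on the array but too dim to be tested.

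Across the split of replicates, which the choice of genes did not use, the 3 chains of C1q were lower in replicates 3 and 4, and Aif1 did not pass the test. The split itself was found in earlier results of these arrays and is not in the labels. The p values below thus describe a grouping taken from the same data. In limma with genotype and split as terms, 6 of the 10 genes were lower in replicates 3 and 4 and Mrc1 was higher, at an adjusted p under 0.05. Of all genes 42.8% were called in this contrast, 20.3% lower and 22.5% higher, so calls are common there. The median of the 10 was -0.40, beside 0.02 over all genes.

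C1qa read 1280 and 1317 in mutants 3 and 4 and 1102 and 1253 in wild types 3 and 4, against 2441 and 2178 in mutants 1 and 2 and 2148 and 1653 in wild types 1 and 2. The sides did not overlap, and the difference was -0.75 (SE 0.11; limma, adjusted p = 0.00124). The mean of C1qb was 743 ± 54.4 over replicates 3 and 4, against 1275 ± 210 over replicates 1 and 2 (SD, n = 4 each), a difference of -0.75 (limma, adjusted p = 0.00204). C1qc differed by -0.72 (limma, adjusted p = 0.0016). The other 2 probe sets of C1qb differed by -1.06 and -1.37 and were called too. Over the 8 arrays with genotype means removed the 3 chains had r between 0.965 and 0.991 with each other, which includes their shared shift across the split. With the split removed too, r was 0.905 for C1qa and C1qc, 0.761 for C1qa and C1qb and 0.682 for C1qb and C1qc.

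Csf1r differed by -0.47 (SE 0.10; limma, adjusted p = 0.00558), and of its other 2 probe sets 1 was called at -0.67 and 1 was not at -0.19. Cd68, which encodes a lysosomal glycoprotein of macrophages, differed by -0.54 (SE 0.13; limma, adjusted p = 0.00995). Fcgr3 differed by -0.34 (SE 0.10; limma, adjusted p = 0.0275); its call was lost with quantile normalization and on leaving out any 1 of 5 mice (mutants 2, 3 and 4 and wild types 1 and 4). The sides did not overlap for C1qa, C1qb, C1qc, Csf1r, Cd68 and Mrc1. Of all genes 18.4% lay lower and 19.3% higher in replicates 3 and 4 without overlap.

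Mrc1, the mannose receptor gene of resident and alternatively activated macrophages, went the other way. It read 1055 and 950 in mutants 3 and 4 and 732 and 934 in wild types 3 and 4, against 511 and 596 in mutants 1 and 2 and 479 and 641 in wild types 1 and 2. All mice of replicates 3 and 4 were above all mice of replicates 1 and 2, by 0.70 (SE 0.14; limma, adjusted p = 0.00436). With genotype means removed its r with the mean of the other macrophage genes was -0.886, where Csf1r had 0.961 and C1qc 0.956. These again hold the shifts across the split, and with the split removed too they were -0.528 for Mrc1, 0.826 for Csf1r and 0.866 for C1qc. Over the 36 pairs among the 9 genes other than Aif1 the median r was 0.628 with genotype means removed and 0.438 with the split removed too, with 27 and 28 pairs above 0.

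Aif1, Adgre1 and Lyz2 did not pass in this contrast. Aif1 differed by 0.18 (SE 0.50; limma, adjusted p = 0.801), at 0.94 within mutants and -0.57 within wild types. Adgre1 differed by -0.04 (limma, adjusted p = 0.847), and Lyz2, the macrophage lysozyme gene, by -0.19 (limma, adjusted p = 0.254). Lyz2 was called at -0.43 with each array centred on its median, a scaling that moved the median over all genes to -0.23; the 6 genes called lower and Mrc1 kept their sign under it. That scaling called 1954 genes higher and 4837 lower over all genes, where the main scaling called 3097 higher and 2803 lower. Within mutants alone the same 7 genes were called (limma), where 4156 of the 13795 genes were. Within wild types alone 0 of the 10 were called, where 1108 of the 13795 genes were, so calls were rarer there over all genes.

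**Figure D4:**
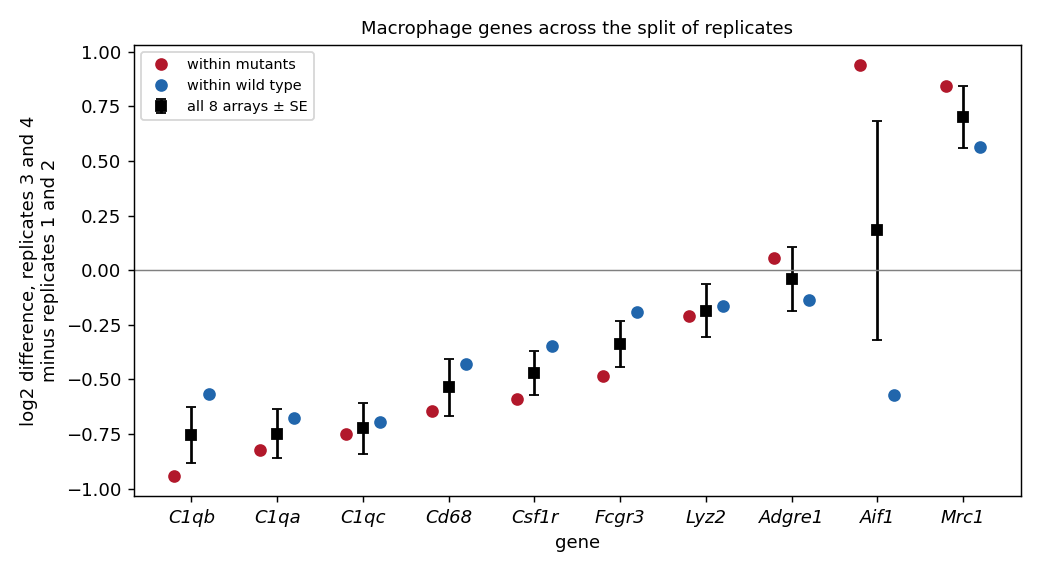
Log2 difference of each of the 10 genes between replicates 3 and 4 and replicates 1 and 2, over all 8 arrays (squares with SE) and within mutants (red) and wild types (blue). C1qa, C1qb and C1qc lie at -0.75, -0.75 and -0.72 over all arrays, Mrc1 lies at 0.70, and Aif1 lies at 0.94 within mutants and -0.57 within wild types.

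Other cell types moved with the split. All 11 epididymis genes measured were higher in replicates 3 and 4, with a median difference of 6.46, and all 11 were called. Of 11 Sertoli cell genes all had negative differences and 6 were called lower, with a median of -0.44, and their summed intensity was 48254 to 53128 in replicates 3 and 4 and 58049 to 77297 in replicates 1 and 2. Of 7 Leydig cell genes 3 were called lower and 1 higher, with a median of -0.39. Endothelial genes and those of spermatocytes and early spermatids had positive medians. Of 10 endothelial genes 8 had positive differences, with a median of 0.36, and 2 were called higher and 1 lower. Of 20 genes of spermatocytes and early spermatids 7 were called higher and 3 lower, with a median of 0.41. Beside these lists, 22.5% of all genes were called higher and 20.3% lower, with a median of 0.02. Markers of other blood cells were mostly too dim to test: 2 of 7 granulocyte genes, 2 of 10 lymphocyte genes, 1 of 5 red cell genes and 0 of 5 mast cell genes passed the filter, and 0 of these were called across the split. The part of these cell types in the differences of the macrophage genes was not tested, and in whole testis fewer cells of a type and less RNA per cell cannot be told apart.

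The 31 further macrophage genes did not move 1 way across the split. Of these 6 were called higher and 5 lower, with a median of 0.02. Over all genes 22.5% were called higher and 20.3% lower, also with a median of 0.02, so this list was near all genes. The largest calls named by p were Lcp1, an actin-bundling protein of leukocytes, at 2.14, H2-Aa, an antigen-presenting class II gene, at 0.82, Trem2, a lipid-sensing receptor gene, at -1.38 and Laptm5, a lysosomal protein gene of leukocytes, at -0.63. Between genotypes 25 of the 31 had positive differences, with a median of 0.16, and 0 were called in any of the 3 fits. Of all genes 62.7% were positive between genotypes, with a median of 0.07. All 11 Sertoli cell genes and 9 of 10 endothelial genes were positive too, against 4 of 20 genes of spermatocytes and early spermatids. The 6 measured genes outside C1q that were listed with the classical complement pathway were all positive between genotypes, with a median of 0.22. So were the 4 genes of Csf1r ligands and Csf2 receptors, with a median of 0.21. Between genotypes 0 were called in either list. Across the split 2 of the 6 were called higher and 1 lower, and 0 of the 4 were called.

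Whether the genotype difference itself differed between the sides of the split was tested as an interaction. Of all genes 0 passed (limma, 0.00% called; 738 genes at an unadjusted p under 0.05), and 0 of the 10 did. For Aif1 the genotype difference of -1.17 in replicates 3 and 4 was smaller in size than that of -2.68 in replicates 1 and 2, and the signed difference between them, 1.51, did not pass the test (SE 0.93; limma, adjusted p = 0.737). All 19 late spermatid genes had a positive interaction, with a median of 1.30, and 0 were called. Without mutant 2, which leaves mutant 1 alone among the mutants of its side, 353 genes passed, Aif1 among them.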

How the data were processed

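Whole-testis RNA of 8 mice, 4 Brwd1-/- and 4 wild type, was measured on 1 Affymetrix array each. The deposited intensity values are linear; the submitters' processing notes name GCOS, with its version not given in the sources used here, and each column's mean after trimming 2% at each end was 500. No detection calls were used. Values were tested as log2(intensity + 16), which understates changes of dim genes. Probe sets below the 40th percentile of mean intensity were left out, and a gene was its probe set of highest mean, which gave 13795 genes. Of 34945 probe sets with 1 symbol, 34741 had an Entrez identifier found in the RefSeq gene table (GRCm38.p6). These took the symbol given there, whether or not it differed.

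Fits used limma 3.58.1 (R 4.3.3) with eBayes, an intensity trend and Benjamini-Hochberg adjustment over all genes, with genotype alone, with genotype and the split of replicates 3 and 4 from 1 and 2, and with their interaction. The fits with genotype and split, and with their interaction, were tested on simulated data with independent noise. No recovery limit was set for the interaction. The fits with genotype alone and with the replicate block were not tested in this way. Same-numbered mutant and wild-type mice deviated together from their group means (r 0.514 to 0.673 for the 4 numbers); this comes from the data, since the labels name no litter, batch or day. Only 3 of the 8 mice (mutants 1 and 2 and wild type 2) correlated best with their own number in the other genotype, and those of replicates 3 and 4 did so with the other number of their side of the split. Replicates are separate mice. Genes named beyond the 10 are the 10 most correlated with Aif1 at each of 2 levels, the 5 nearest genes on each side of it, and up to 4 called genes of a list by smallest p; Odf1 is among these. Acr is named as an example of its list without a value, and Brwd1 as the targeted gene. The members and lists were chosen with earlier results of these data known. Alternatives were the normalization, the pseudocount, the filter, the choice of probe set, the blocks, each mouse left out and each side of the split alone. Leaving out the 2 arrays farthest from the median of Aif1, and counting single genes above r 0.8 without mutant 1, were chosen after seeing the data.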

Additional observations from a re-analysis of the deposited data

How the results depend on the processing

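Over all genes the genotype count of 46 was 27 with a filter at the 60th percentile, 22 with a pseudocount of 1, 99 with 64, 0 within replicates 1 and 2, 28 within replicates 3 and 4, and 0 to 191 on leaving out 1 mouse. With the replicate block it was 483 and with the split as a block 371. Of the 10 genes 0 were called without a block, 2 with the replicate block, 1 with the split as a block and 0 to 1 on leaving out 1 mouse. The split called 5900 genes on all arrays. A separate fit on wild types alone called 1108, and of the 10 genes 0 lower and 0 higher. The interaction called 0 genes and 0 of the 10, and 0 to 353 and 0 to 1 on leaving out 1 mouse. The cause of these moves was not tested. The fits without 1 mouse, on 1 side of the split or on 1 genotype also held fewer mice. In the correlations with Aif1, given for no means removed, genotype means removed and genotype and split means removed, leaving out 1 mouse gave 0.986 to 0.995, 0.932 to 0.995 and 0.917 to 0.999 with late spermatid genes, and -0.702 to -0.216, -0.530 to 0.416 and -0.662 to -0.395 with the other 9 macrophage genes. Without the 2 arrays farthest from the median of Aif1 they were 0.989, 0.913 and 0.935 with late spermatid genes and -0.274, 0.423 and -0.313 with the other 9. Median centring gave -0.269, -0.0193 and -0.246 with the other 9. Dim probe sets and the absence of detection calls limit what can be said of genes that were not tested.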
